A study of Oryza sativa and Oryza rufipogon with 8 samples.

Results

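The subject is a set of 8 genes expressed in rice roots, 3 of purple acid phosphatases and 5 of enzymes that build or feed membrane lipids, with their partner genes in wild rice. They are 8 of the 35679 genes measured in *O. sativa*, and 7 partners among the 37071 genes measured in *O. rufipogon* were described beside them. The genes were picked by identifier after they had been seen to be lower under Fe deficiency in these same libraries, so their difference between the treatments is given as a description, with no test, and nothing is supported by it. The phosphatase genes are *PAP10* (OS01G0776600), *PAP3b* (OS10G0116800) and *PAP16* (OS01G0941800). The lipid genes are *MGD3* (OS02G0802700), 2 genes annotated with the sulfolipid synthase activity of SQD2 (OS01G0142300 and OS07G0100300), a cytosolic glycerol-3-phosphate dehydrogenase gene (OS01G0801600) and a ceramide glucosyltransferase gene (OS01G0906000). OS07G0100300 had no partner in the ortholog list used.

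RNAseq was done on roots of *O. sativa* cultivar Nipponbare, a domesticated rice, and of 1 accession of *O. rufipogon*, its wild progenitor, at the three-leaf stage. The −Fe plants were kept for 5 days in nutrient solution with no Fe added, and the control plants (CC) for the same 5 days in solution with 100 µM Fe-EDTA. All plants had received the Fe-containing solution beforehand, and this solution contained phosphate. Each species had 2 −Fe and 2 CC libraries, and RNA of 3 biological replicates was pooled for every library, so that n = 2 for every mean and each species stands on 1 line.

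Purple acid phosphatases are metal-dependent enzymes that release inorganic phosphate from organic phosphate esters at acid pH. Their active centre holds a pair of metal ions, 1 of them ferric iron, which gives the proteins their colour. In plants many of them are secreted from roots, and their genes are known for being induced when phosphate is short. Under the same shortage plants replace part of their phospholipids with lipids that carry no phosphorus. Galactolipids and the sulfolipid sulfoquinovosyldiacylglycerol take that place, and both are built on diacylglycerol by glycosyl transferases.

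Summed over transcripts, the estimated counts came to 24123205 and 25312301 under −Fe and to 22911261 and 23019020 under CC for *O. sativa*. For *O. rufipogon* they came to 17145733 and 18857150 under −Fe and to 14758304 and 17256880 under CC. An estimated count is the number of reads that Kallisto assigned to a transcript, and it is not whole where reads were divided between transcripts. Counts were summed per gene and are given below as CPM, the counts scaled to a common library size with the TMM factors. A total of 3 counts corresponded to between 0.119 and 0.203 CPM, a limit that covers counting error only. Levels of different genes are compared only as TPM, which accounts for transcript length. Of 25767 *O. sativa* genes tested, 942 were lower under −Fe at an adjusted p under 0.05 in the quasi-likelihood test of edgeR, or 3.66%, and 2.98% were higher (6.63% in either direction). Of 21081 *O. rufipogon* genes, 874 were lower, or 4.15%, and 11.9% were higher (16.0% in either direction). These counts moved with single libraries. In *O. rufipogon* 3 and 4 genes were lower without the first and the second −Fe library, and 4643 and 2607 without the first and the second CC library. In *O. sativa* 338 and 717 were lower without the first and the second −Fe library, and 362 and 285 without the first and the second CC library.

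All 8 *O. sativa* genes passed the filter on low counts, and in each of them both −Fe libraries lay under both CC libraries. That held for 27.1% of all *O. sativa* genes tested. The median log2 fold change of the 8 genes, −Fe over CC, was −1.06, with a range of −2.53 to −0.61, while the median of all genes tested was −0.0052. Their summed level was 182.6 and 185.1 CPM in the −Fe libraries, against 409.9 and 430.0 CPM in the CC libraries. In *O. rufipogon* the 7 partners also passed the filter, and in all 7 the groups did not overlap, as in 30.1% of all genes tested there. Their median log2 fold change was −1.59, with a range of −1.69 to −0.75, against a median of 0.0079 over all genes. Their summed level was 492.6 and 424.2 CPM under −Fe, against 1086 and 1226 CPM under CC. In whole roots, fewer cells of a type and less RNA per cell cannot be told apart.

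**Figure D1:**
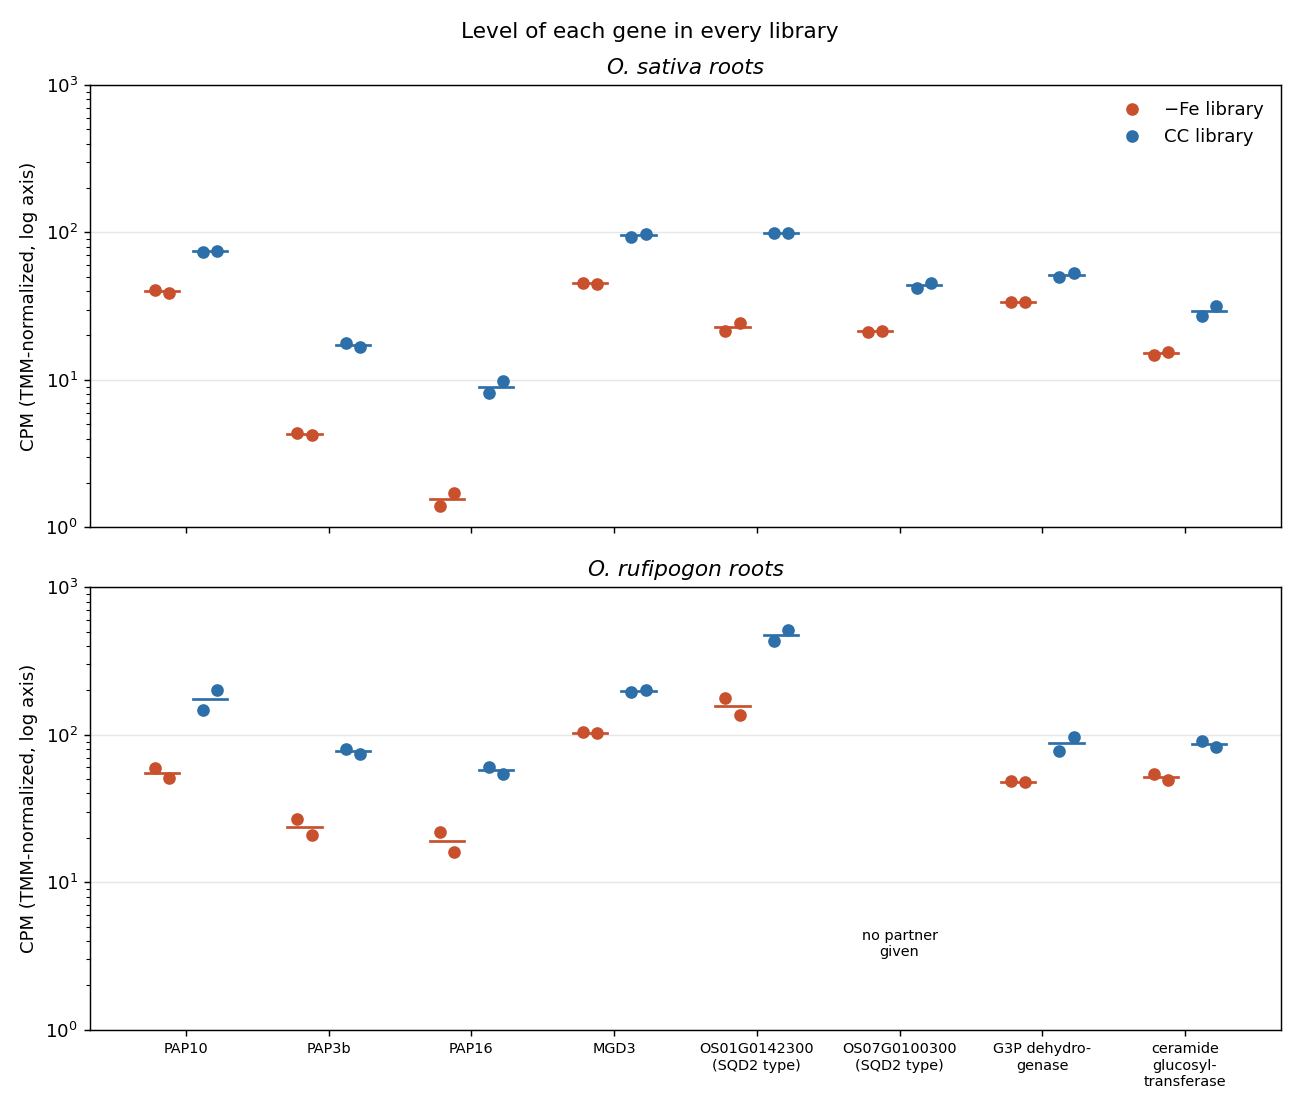
Level of each gene in every library, as TMM-normalized CPM on a log axis, in *O. sativa* roots (upper panel) and *O. rufipogon* roots (lower panel). Points are single libraries, −Fe left of CC, and bars are the mean of 2 libraries. In each of the 15 genes shown both −Fe points lie under both CC points.

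*PAP10* carries the name of an Arabidopsis phosphatase that sits on the root surface, and it is annotated with the cell wall and with the response to phosphate starvation. In *O. sativa* it had 40.4 and 39.1 CPM in the −Fe libraries, against 73.4 and 75.3 CPM in the CC libraries. The libraries of each treatment lay within 2 CPM of each other, and the −Fe level was 53.5% of the CC level. The log2 fold change was −0.90 ± 0.077 (SE), rank 1088 from the lowest among all genes tested. In *O. rufipogon* its partner ORUFI01G36050 had 59.6 and 51.1 CPM under −Fe, against 147 and 202 CPM under CC. The CC libraries were far apart here, and the second of them was the highest. The log2 fold change was −1.66 ± 0.18, with the −Fe level at 31.7% of the CC level.

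The reads of *PAP10* in *O. sativa* were divided between 3 transcripts. That of 1042 nt took 42.6% and 49.0% of the estimated counts in the −Fe libraries, against 50.7% and 45.8% in the CC libraries. The transcript of 1536 nt took 41.0% and 31.7% under −Fe, against 38.0% and 41.4% under CC. For both transcripts the shares overlapped between the treatments. The longest transcript, of 2006 nt, took 16.4% and 19.3% under −Fe, against 11.3% and 12.7% under CC, with both −Fe shares above both CC shares. Its estimated counts, not normalized, were 161 and 186 under −Fe, against 194 and 221 under CC. Kallisto divides reads between transcripts of 1 gene, so these shares are estimates, and no test was made on them.

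**Figure D2:**
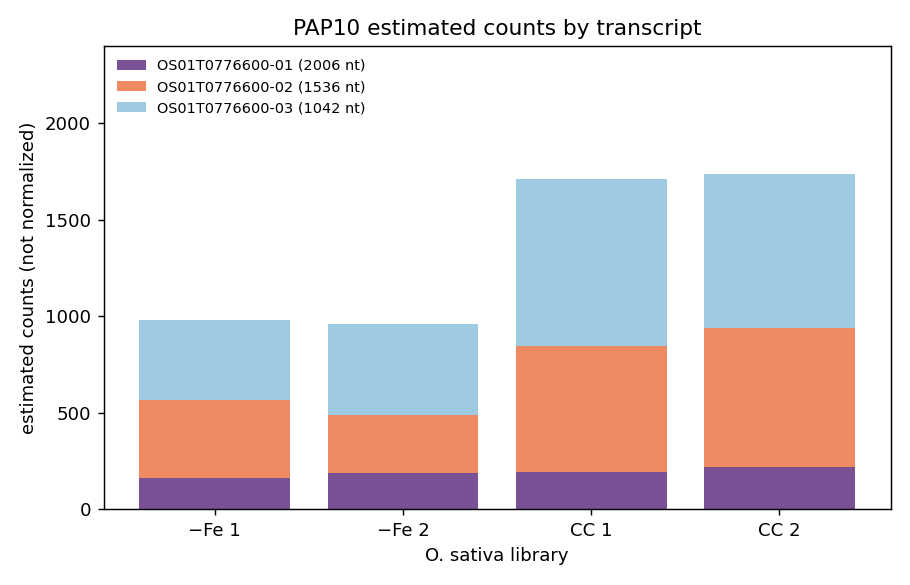
Estimated counts of the 3 *PAP10* transcripts in each *O. sativa* library, not normalized, stacked to the gene's total. The 1042 nt and 1536 nt transcripts make up most of each bar, and the −Fe bars (982 and 961 counts) are lower than the CC bars (1711 and 1738 counts).

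*PAP3b* is a purple acid phosphatase gene on chromosome 10, annotated with acid phosphatase activity. Its level in *O. sativa* was 4.36 and 4.23 CPM under −Fe, against 17.8 and 16.6 CPM under CC. The −Fe level was 24.97% of the CC level, and the estimated counts behind these levels were 106 and 104 under −Fe and 415 and 384 under CC. The log2 fold change was −2.002 ± 0.144. The *O. rufipogon* partner ORUFI10G00780 had 26.8 and 20.9 CPM under −Fe, against 80.1 and 74.1 CPM under CC, a log2 fold change of −1.69 ± 0.16. Its estimated counts were not whole, so reads had been divided with another gene and the *O. rufipogon* level is uncertain to that extent.

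*PAP16* is named after an Arabidopsis protein described as a probable inactive purple acid phosphatase, with the metallophosphoesterase fold of the family. In *O. sativa* it had 1.40 and 1.71 CPM under −Fe, against 8.10 and 9.84 CPM under CC. The −Fe level was 17.4% of the CC level, and the −Fe values rest on 34 and 42 estimated counts. The log2 fold change was −2.53 ± 0.23, rank 100 from the lowest of 25767 genes and the lowest of the 8. In *O. rufipogon* the partner ORUFI01G47010 had 22.0 and 16.0 CPM under −Fe, against 60.6 and 54.4 CPM under CC. There its log2 fold change was −1.60 ± 0.19, inside the range of the other partners.

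*MGD3* encodes a monogalactosyldiacylglycerol synthase, which transfers galactose to diacylglycerol, and in Arabidopsis the synthase of this name is known for its induction by phosphate shortage. In *O. sativa* it had 45.2 and 44.9 CPM under −Fe, against 92.9 and 98.1 CPM under CC. The −Fe libraries were almost equal and stood at 47.2% of the CC level, a log2 fold change of −1.08 ± 0.076. The partner ORUFI02G37800 of *O. rufipogon* had 104 and 102 CPM under −Fe, against 195 and 202 CPM under CC. The libraries of each treatment were again close to each other, and the log2 fold change was −0.95 ± 0.10.

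The last step of sulfolipid synthesis, the transfer of sulfoquinovose to diacylglycerol, is the annotated activity of OS01G0142300 and OS07G0100300. OS01G0142300 had 21.4 and 24.4 CPM under −Fe, against 98.4 and 99.8 CPM under CC. The −Fe libraries stood at 23.1% of the CC level, with a log2 fold change of −2.11 ± 0.089. Nearly all of its reads were assigned to 1 transcript of 1633 nt, which took 100% and 89.8% of the counts under −Fe and 96.9% and 100% under CC. Its *O. rufipogon* partner ORUFI01G02770 had 178 and 137 CPM under −Fe, against 434 and 514 CPM under CC. The log2 fold change was −1.59 ± 0.17, and this gene shared reads with another.

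OS07G0100300, on chromosome 7, showed a smaller difference between the treatments than the other gene of its kind. It had 21.2 and 21.4 CPM under −Fe, against 41.9 and 45.5 CPM under CC, a log2 fold change of −1.04 ± 0.093. The −Fe level was 48.8% of the CC level, and the libraries of each treatment were close to each other. Its transcript of 1287 nt took between 80.9% and 85.3% of its counts in the 4 libraries, with the −Fe shares (83.8% and 80.9%) overlapping the CC shares (82.1% and 85.3%).

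Glycerol-3-phosphate is the backbone from which diacylglycerol is made, and the cytosolic dehydrogenase OS01G0801600 interconverts it with dihydroxyacetone phosphate. It had 33.7 and 33.9 CPM under −Fe, against 50.1 and 53.2 CPM under CC. This was the smallest fold of the 8 genes, with the −Fe level at 65.5% of the CC level and a log2 fold change of −0.61 ± 0.084. It was also the only one of the 8 whose counts were not whole in every library. The estimate in the second −Fe library was 834.7 counts, so reads had been divided with another gene, and their number is not known. The partner ORUFI01G37440 had 48.6 and 47.7 CPM under −Fe, against 78.2 and 96.5 CPM under CC, a log2 fold change of −0.86 ± 0.14, and shared reads as well.

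Ceramide glucosyltransferase makes glucosylceramide, a sphingolipid of plant plasma membranes that also carries no phosphate. OS01G0906000 had 14.9 and 15.5 CPM under −Fe, against 27.3 and 31.6 CPM under CC, a log2 fold change of −0.96 ± 0.12. The second CC library was the higher of the pair, as it was in 7 of the 8 genes, *PAP3b* being the exception. Its partner ORUFI01G44340 in *O. rufipogon* had 53.8 and 49.7 CPM under −Fe, against 91.4 and 82.5 CPM under CC, a log2 fold change of −0.75 ± 0.12. The transcript model of the *O. sativa* gene is 506 nt long and that of the *O. rufipogon* partner 1512 nt, so the CPM of this pair count reads over unlike lengths.

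In all 7 *O. rufipogon* partners the first −Fe library was higher than the second. Under CC the second library was the higher one in 4 of the 7.

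Per length, the order of the *O. sativa* genes differed between the treatments. Under −Fe the ceramide glucosyltransferase gene (37.6 ± 0.20 TPM, SD, n = 2) and *PAP10* (36.8 ± 1.55 TPM) were highest and overlapped in their libraries, followed by *MGD3* at 32.3 ± 1.20 TPM. The dehydrogenase gene (21.4 ± 0.62 TPM), OS07G0100300 (18.7 ± 0.69 TPM) and OS01G0142300 (16.8 ± 1.004 TPM) came next, with *PAP3b* (4.36 ± 0.24 TPM) and *PAP16* (1.19 ± 0.13 TPM) far under them. Under CC the ceramide glucosyltransferase gene (74.3 ± 6.87 TPM), OS01G0142300 (74.2 ± 0.10 TPM), *PAP10* (71.5 ± 0.60 TPM) and *MGD3* (69.5 ± 1.89 TPM) lay together, and the ceramide gene overlapped each of the other three. OS07G0100300 (39.2 ± 2.09 TPM), the dehydrogenase gene (33.2 ± 1.03 TPM), *PAP3b* (17.7 ± 1.04 TPM) and *PAP16* (7.01 ± 0.90 TPM) followed in that order without overlap. OS01G0142300 thus had the second place under CC and the sixth under −Fe. The TPM of the ceramide glucosyltransferase gene rests on its transcript model of 506 nt, against 1512 nt in its partner, so its place depends on that length.

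Among all *O. sativa* genes tested, the 8 genes stood between the 19.8 and the 80.0 percentile of TPM under −Fe, and between the 46.8 and the 89.3 percentile under CC. By mean TPM *PAP16* was the lowest and the ceramide glucosyltransferase gene the highest in both treatments. The libraries of the ceramide gene overlapped those of other genes in both, and its place depends on its short transcript model.

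In *O. rufipogon* the partner of OS01G0142300 was highest per length in both treatments, at 89.0 ± 14.6 TPM under −Fe and 294 ± 31.5 TPM under CC. The *PAP10* partner had 51.9 ± 4.52 TPM under −Fe and 180 ± 37.9 TPM under CC, and the *MGD3* partner 60.6 ± 0.53 TPM under −Fe and 128 ± 1.33 TPM under CC. These 2 genes changed places between the treatments. The dehydrogenase and ceramide glucosyltransferase partners, at 44.9 ± 0.45 and 44.9 ± 1.58 TPM under −Fe, did not differ beyond their spread there. Under CC these partners and that of *PAP3b*, at 89.5 ± 12.03, 82.8 ± 7.07 and 90.1 ± 6.21 TPM, overlapped as well. The *PAP16* partner was lowest, with 21.8 ± 4.40 TPM under −Fe, where it overlapped that of *PAP3b* (25.4 ± 3.88 TPM), and 72.5 ± 6.55 TPM under CC. The *PAP16* gene was thus at 1.19 TPM in *O. sativa* and 21.8 TPM in *O. rufipogon* under −Fe, and at 7.01 and 72.5 TPM under CC. Each species was quantified on its own transcripts, so these levels stand side by side with no test.

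**Figure D3:**
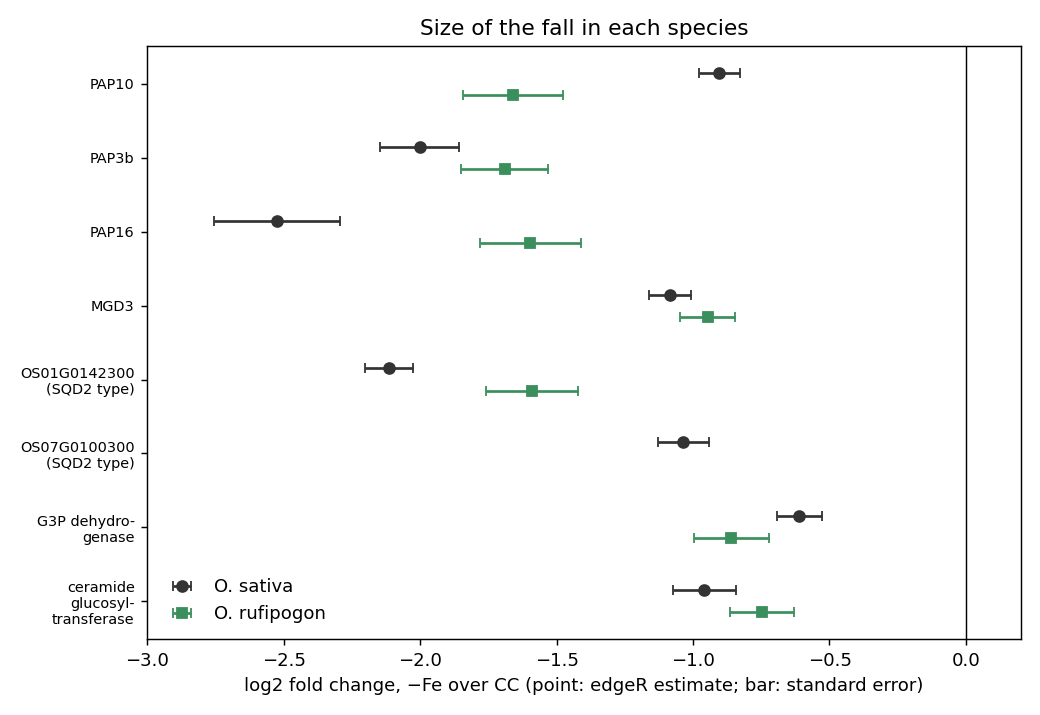
Log2 fold change, −Fe over CC, of each gene in *O. sativa* (circles) and of its partner in *O. rufipogon* (squares), with the standard error of the edgeR fit as bars. All 15 points lie under 0, from −2.53 for *PAP16* to −0.61 for the dehydrogenase gene, both in *O. sativa*.

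Whether the fall differed in size between the species was asked with the species by treatment interaction, over the 102 ortholog pairs of the study's list. These pairs had been listed because they changed in both species, so only the difference between the species was read. The difference is built from the same falls, so the choice of pairs bears on it too. The intervals and adjusted p-values take no account of that choice. In the edgeR test, 36 of the 102 pairs passed an adjusted p of 0.05, or 35.3%, with 12.7% of the pairs above 0 and 22.5% under 0. Of the 7 pairs described here 2 passed, which is near the share of all pairs and is no property of these genes. The difference, *O. sativa* minus *O. rufipogon*, was 0.76 on the log2 scale for *PAP10* (95% interval 0.31 to 1.20, edgeR adjusted p = 0.0139), so that the fall was smaller in *O. sativa*. It was −0.93 for *PAP16* (95% interval −1.63 to −0.22, edgeR adjusted p = 0.0413), so that the fall was larger in *O. sativa*. The estimates for the *PAP10* and *PAP16* pairs thus had opposite signs.

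Both calls were lost when certain single libraries were left out. The *PAP10* difference was 0.74 (adjusted p = 0.070) without the first *O. sativa* CC library, 0.77 (adjusted p = 0.0576) without the second, and 0.65 (adjusted p = 0.0558) without the second *O. rufipogon* −Fe library. It stayed above 0, between 0.51 and 0.97, under every alternative for which the difference between the species was refitted. The most abundant transcript in place of the gene was not among these. The *PAP16* difference lost its call without any 1 of 6 libraries, its adjusted p being 0.164 and 0.0523 without the first and second *O. sativa* −Fe library, 0.061 and 0.155 without the first and second *O. sativa* CC library, 0.136 without the first *O. rufipogon* −Fe library and 0.0912 without the second *O. rufipogon* CC library. Under the same refitted alternatives it stayed under 0, between −1.14 and −0.62, where the value nearest 0 came from limma (adjusted p = 0.175).

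The pair of OS01G0142300 fell more in *O. sativa*, by −0.52 on the log2 scale, with an interval of −0.96 to −0.083 that left out 0 before the adjustment over pairs and an adjusted p of 0.0647 in edgeR after it. Its adjusted p was 0.0381 without the second *O. sativa* −Fe library, 0.0142 without the second *O. rufipogon* −Fe library and 0.035 without the second *O. rufipogon* CC library, and it reached 0.254 without the first *O. rufipogon* −Fe library. No difference between the species was detected for the other 4 pairs. The intervals were −0.83 to 0.21 for *PAP3b*, −0.43 to 0.16 for *MGD3*, −0.15 to 0.65 for the dehydrogenase gene and −0.62 to 0.20 for the ceramide glucosyltransferase gene.

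**Figure D4:**
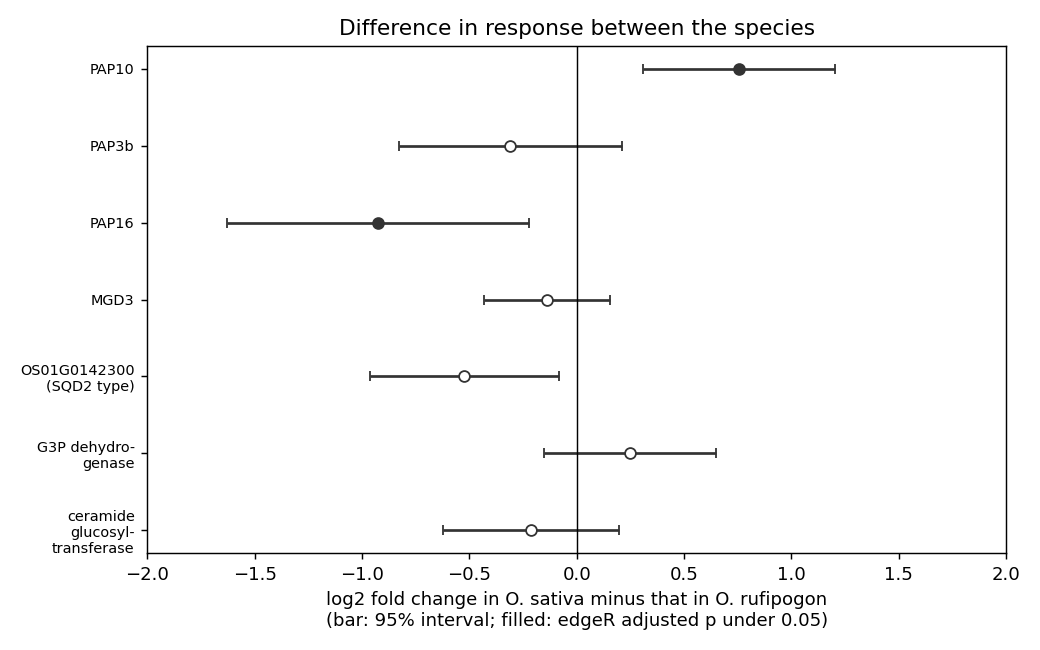
Difference in log2 fold change between the species, *O. sativa* minus *O. rufipogon*, for the 7 pairs, with 95% intervals from edgeR as bars. Filled points passed an adjusted p of 0.05 over 102 pairs, which are *PAP10* at 0.76 and *PAP16* at −0.93. The other 5 points are open.

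The other pathway genes in the same ortholog list were also lower under −Fe, but that list holds only genes that changed, so their count says nothing about the pathway. The only other purple acid phosphatase gene of the list was OS03G0238600, at 163 ± 2.27 TPM under −Fe and 329 ± 8.14 TPM under CC. It was higher per length than the 8 genes and than the 3 lipid genes picked from the list. It had 186 and 192 CPM under −Fe, against 366 and 385 CPM under CC, a log2 fold change of −0.99 ± 0.081, and it shared reads with another gene. All 3 further genes of the list that were picked by a membrane lipid description were lower as well. OS08G0156600, given below among further genes, is also in the list, but under a transporter description, and was not picked. OS02G0514500, a glycerophosphodiester phosphodiesterase gene whose product releases glycerol-3-phosphate from deacylated phospholipids, had 64.6 and 69.0 CPM under −Fe, against 240 and 236 CPM under CC. Its log2 fold change was −1.83 ± 0.080, and it shared reads. OS04G0438600, with a glycolipid transfer protein domain, had 4.81 and 4.31 CPM under −Fe, against 15.9 and 18.0 CPM under CC, a log2 fold change of −1.89 ± 0.15.

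Digalactosyldiacylglycerol synthase 2 (OS03G0214400), which adds the second galactose to the product of the MGD enzymes, showed the smallest difference of the 4 genes. It had 34.0 and 31.8 CPM under −Fe, against 49.1 and 49.0 CPM under CC, a log2 fold change of −0.58 ± 0.085. Its call in the edgeR test was lost without the first CC library and without the second. The gene came from a list of genes that changed, so nothing is read from the call. In *O. rufipogon* its partner ORUFI03G08360 had 33.5 and 31.7 CPM under −Fe, against 70.3 and 70.3 CPM under CC. The difference between the species for this pair was 0.53 (95% interval 0.16 to 0.90, edgeR adjusted p = 0.0306, between 0.00122 and 0.190 over the alternatives), as for *PAP10* a smaller fall in *O. sativa*. The differences of the other 3 list pairs had edgeR adjusted p between 0.220 and 0.749. Over the alternatives that of OS02G0514500 lay between 0.0303 and 0.505, past the threshold at its lowest, that of OS03G0238600 between 0.0542 and 0.489, and that of OS04G0438600 between 0.423 and 0.947.

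Further genes with an acid phosphatase or membrane lipid annotation were found among those the study lists as lower, and were chosen after their values had been seen. In *O. sativa* they include 3 purple acid phosphatase genes with log2 fold changes of −2.56 to −0.999. Of these OS08G0280100, described as similar to a phytase, an enzyme that frees phosphate from phytate, had 2.10 and 2.28 CPM under −Fe, against 12.99 and 12.91 CPM under CC. OS12G0637100 had 29.8 and 38.9 CPM under −Fe, against 134 and 105 CPM under CC.

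In the same species 4 lipid genes had log2 fold changes of −2.30 to −0.56. A second phosphodiesterase gene, OS03G0603600, had 14.2 and 22.7 CPM under −Fe, against 94.8 and 87.1 CPM under CC. OS08G0156600 and OS04G0555300, described as similar to glycerol-3-phosphate permease, a membrane transporter, had log2 fold changes of −1.76 ± 0.11 and −1.31 ± 0.095. In *O. rufipogon* 5 genes with acid phosphatase activity had log2 fold changes of −1.61 to −0.43, and 3 lipid genes −1.80 to −0.98. Among the last, ORUFI05G20980, annotated with UDP-glucose formation for sulfolipid synthesis, had 55.8 and 40.1 CPM under −Fe, against 107 and 113 CPM under CC. The *O. rufipogon* lipid genes also include ORUFI08G03760, the partner of OS08G0156600 in the ortholog list. The difference between the species for that pair is not given here. In each of these 15 genes the treatments did not overlap, with −Fe the lower, as in 27.1% of all *O. sativa* and 30.1% of all *O. rufipogon* genes tested, and since the genes were taken from those listed as lower, nothing is read from this.

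The *O. sativa* genes were also compared by the shape of their level over the 4 *O. sativa* libraries, as the Euclidean distance of centred log2(CPM + 0.5) to OS01G0142300. The nearest gene was OS11G0106700, a gene of ferritin, the plastid protein that stores Fe, at a distance of 0.125. It had 9.87 and 11.1 CPM under −Fe, against 42.9 and 49.2 CPM under CC, and its log2 fold change was −2.14. The next was OS06G0570566, described as similar to ent-kaurene oxidase, at 0.135, which had 0 CPM in both −Fe libraries and 1.69 and 1.68 CPM in the CC libraries. With no counts under −Fe, its distance and its rank are set by the added 0.5 CPM, and no likeness to OS01G0142300 is read from them. The third was *PAP16*, at 0.206, which had 1.40 and 1.71 CPM under −Fe. Its log2 fold change was −2.53 in edgeR and −2.20 on log2(CPM + 0.5). Those of OS01G0142300 were −2.11 and −2.09. The distance of *PAP16* thus also depends on the added 0.5 CPM, and no likeness is read from it. The distance is a description over 4 libraries of 2 groups.

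By position, 5 of the 8 *O. sativa* genes lie on chromosome 1, which holds 14.2% of the genes tested. On IRGSP 1.0 these are OS01G0142300 (chromosome 1, 2275239 to 2278860), *PAP10* (chromosome 1, 32848286 to 32852539), the dehydrogenase gene (chromosome 1, 33952187 to 33956006), the ceramide glucosyltransferase gene (chromosome 1, 39437968 to 39438606) and *PAP16* (chromosome 1, 41384339 to 41386372). The nearest neighbours among them, *PAP10* and the dehydrogenase gene, are 1.10 Mb apart. The others are *MGD3* (chromosome 2, 34223237 to 34227448), OS07G0100300 (chromosome 7, 17519 to 21402) and *PAP3b* (chromosome 10, 1082947 to 1084984). The partners of the 5 genes also lie on chromosome 1 of *O. rufipogon*, which holds 14.4% of the genes tested there.

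The labelled tissue was checked in *O. sativa* with 3 root genes, the silicon transporters *Lsi1* and *Lsi2* and the root cortex gene *RCc3*, and with 4 genes of green tissue, for the RuBisCO small subunit and chlorophyll a/b binding proteins. The root genes summed to 1620 and 2014 TPM under −Fe, against 4230 and 3976 TPM under CC. The green genes summed to 237 and 106 TPM under −Fe, against 204 and 288 TPM under CC, so the libraries carried the root genes at high levels and the green ones at lower ones, none at 0. *Lsi1* had 517 and 605 TPM under −Fe, against 1806 and 1327 TPM under CC (log2 fold change −1.45, edgeR adjusted p = 0.00368), and *Lsi2* was lower as well (−1.16, adjusted p = 0.0273). *RCc3* had a log2 fold change of −0.91 and did not pass (adjusted p = 0.0770), and none of the 4 green genes passed. These root genes were thus lower in the −Fe libraries together with the 8 genes described here, and their part in the lower levels was not tested.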

How the data were processed

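Root RNA of *O. sativa* and *O. rufipogon* was sequenced by Illumina HiSeq as single reads of 50 nt. Per the study's methods, the authors filtered the reads at a PHRED value of 30, trimmed adapters and 12 nt from the read start, and quantified transcripts with Kallisto on the transcriptome of each species. The authors deposited the estimated counts of each transcript, which are not normalized and can be fractional. The authors deposited its TPM in the same tables. The submitters' processing notes name FastQC, kallisto and IRGSP 1.0. Kallisto's version and the *O. rufipogon* build are not given in the sources used here. No sequence was read.

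Estimated counts were summed per gene and rounded. Genes that reached 5 counts in 2 or more libraries of their species were tested with edgeR 4.0.16 (robust quasi-likelihood fit, TMM, R 4.3.3), with Benjamini-Hochberg adjustment over all genes of the species at 0.05. The interaction was fitted over 102 ortholog pairs with all 8 libraries. Library sizes and TMM factors came from all genes of each species that passed the filter. A standard error is the log2 fold change divided by the square root of F. A gene was said to share reads where its summed estimate was more than 0.05 from a whole number in a library. The fits were tested on simulated data, but the outcome is not given here and nothing rests on it. Libraries of a group are labelled as replicates of pooled RNA, so the spread between them leaves out part of the variation between plants. The biological coefficient of variation was 11.8% in *O. sativa* and 16.8% in *O. rufipogon*.

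The members and lists were chosen with earlier results of these data known. The text names the 8 genes and their partners, 5 of them given with the gene list and those of *PAP16* and the dehydrogenase gene taken from the study's ortholog list, the purple acid phosphatase and membrane lipid genes that pass in *O. sativa*, and the 3 genes nearest to OS01G0142300. The gene table supplied for names matched none of the 8 identifiers and holds no descriptions. Both lists were therefore taken by description from the study's ortholog list, which holds only genes that changed. The 15 further annotated genes were added after seeing the data. Positions and descriptions come from the study's annotation columns, and its own fold changes and p-values, which those tables also hold, were not used.

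The alternatives were median-ratio size factors, DESeq2 1.42.0, no filter, a minimum of 10 counts in each library, limma 3.58.1 on log2(CPM + 0.5), log2(TPM + 1) and log2(TPM + 0.1), the replicate number as a block, the most abundant transcript in place of the gene, and leaving out each library. A crossed block for *O. sativa* was chosen after seeing the data. The difference between the species was refitted only under some of these alternatives. They were median-ratio size factors, DESeq2, limma on log2(CPM + 0.5), the replicate number as a block, and leaving out each library.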

Additional observations from a re-analysis of the deposited data

Results flagged for a closer look

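In 2 of the 7 pairs the response differed between the species past the threshold of the interaction test, as it did in 35.3% of all 102 pairs. The pairs had been listed because they changed in both species, and the adjusted p-values take no account of that choice. For *PAP10* the difference was 0.76 on the log2 scale, *O. sativa* minus *O. rufipogon*, with a log2 fold change of −0.90 in *O. sativa* and −1.66 in *O. rufipogon* (edgeR adjusted p = 0.0139). In *O. rufipogon* the CC libraries of this gene had 147 and 202 CPM, and the difference between the species was 0.97 without the first of them and 0.51 without the second, past the threshold both times. The call was lost without the second *O. rufipogon* −Fe library (adjusted p = 0.0558), without the first (0.070) or the second (0.0576) *O. sativa* CC library, and with the replicate number as a block (0.059). For *PAP16* the difference was −0.93, with a log2 fold change of −2.53 in *O. sativa* and −1.60 in *O. rufipogon* (edgeR adjusted p = 0.0413). The *O. sativa* −Fe libraries hold 34 and 42 estimated counts of *PAP16*, against 189 and 227 in its CC libraries. Its call was lost without any 1 of 6 libraries, with adjusted p between 0.0523 and 0.164, and in limma (adjusted p = 0.175).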

How the results depend on the processing

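Under the 203 alternative values of the 15 log2 fold changes, none changed sign, 180 moved by less than 1 SD between replicates and 23 by more. The widest range in *O. sativa* was that of *PAP16*, −2.67 to −1.86, where the value nearest 0 came from log2(TPM + 1). Of 84 alternative values of the pair differences none changed sign, 11 lost the call and 3 gained it. Of the 7 pairs, 2 passed in the edgeR fit, with median-ratio size factors and in DESeq2, 1 in limma (*PAP10*), and 0 to 2 when 1 library was left out, where the lone library is assumed to vary like the others. The 0 came without the first *O. sativa* CC library (2 pairs at an unadjusted p under 0.05) and without the second (1 pair).

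The replicate numbers do not pair the libraries by any label, and the deviations of same-numbered libraries correlated at −0.142 in *O. sativa* and 0.10 in *O. rufipogon*. With the replicate number as a block, 1 pair passed (*PAP16*, adjusted p = 0.0495), the *PAP10* difference had an adjusted p of 0.059, and 1717 *O. sativa* and 3489 *O. rufipogon* genes passed. The crossed block gave 2036 *O. sativa* genes. Without the block 1709 and 3378 passed. With the most abundant transcript 834 *O. sativa* and 775 *O. rufipogon* genes passed, and leaving out 1 library gave 613 to 1194 and 113 to 9604. In *O. rufipogon*, 2504 were higher and 874 lower in edgeR, against 2328 and 1313 in DESeq2 and 2521 and 1546 in limma on log2(TPM + 1). The lipid list, made up of genes already called as changed, had 3 of 3 genes lower, beside 3.66% of all *O. sativa* genes, and 2 to 3 when 1 library was left out. The cause of these shifts was not tested.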
